A study of Mus musculus with 24 samples.

Results

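Genes of cholesterol and fatty acid synthesis were examined as a module of 33 genes in the RNA-seq counts of mouse astrocyte lines. The members were chosen by name from the textbook pathway, and 33 of 33 were found among the 14427 genes of the count table through their Ensembl identifiers and GENCODE M21 symbols. They were grouped by role into 7 genes of the mevalonate arm, 11 genes of the squalene and sterol arm, 6 genes that regulate SREBP processing or carry sterol, and 9 genes of the fatty acid arm. Gene levels are given as CPM, which are counts scaled to library size with trimmed mean of M-values normalization, differences as log2 fold changes, and every adjusted p comes from edgeR's quasi-likelihood test with Benjamini-Hochberg adjustment over all 14427 genes. A gene was called higher or lower when its adjusted p was at most 0.05.

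The study asked whether p53 mutations act differently in male and female astrocytes, and it sequenced 24 polyA libraries from 8 lines with 3 libraries each. The starting cells were cortical astrocytes of C57BL/6 background taken at postnatal day 1 from pups with 1 floxed and 1 deleted Trp53 allele (Trp53 f/-), pooled by sex into 1 male culture (m1) and 1 female culture (f1). The p53 KO lines (m1_cre and f1_cre) received lentiviral Cre with puromycin resistance, which removes the floxed allele. The R172H, Y202C, and Y217C lines first received a retrovirus with the mutant Trp53 cDNA and eGFP, were sorted for eGFP, and then received the same Cre virus. All lines were therefore without the endogenous floxed allele by design, were at passages 10 to 15, and grew in medium with 10% serum. Mutation cannot be told apart from the retrovirus and the sort, because the p53 KO lines had neither. Sex cannot be told apart from the culture, because each sex is 1 pool. Nothing in the labels ties the 3 libraries of a line to separate animals, so p-values measure the spread between libraries of 1 line.

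Cholesterol is built from acetyl units through mevalonate and farnesyl diphosphate, which is joined into squalene, closed into lanosterol, and trimmed to cholesterol. Fatty acids are built from the same acetyl units by carboxylation, chain synthesis, elongation, and desaturation. Both arms are under the SREBP transcription factors, which SCAP carries from the endoplasmic reticulum for activation when sterol is low and which the INSIG proteins hold back when sterol is plentiful, and in the brain astrocytes are a main site of cholesterol synthesis.

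The libraries held between 52787288 and 136503809 counts (median 80684345), and the module held from 0.375% to 0.771% of them. The lowest count of any member in any library was 238. Trp53 averaged 50.9 CPM in male and 48.9 CPM in female p53 KO and from 593 to 3710 CPM in the mutant lines, where reads of the viral cDNA and of the endogenous gene cannot be told apart. Among astrocyte markers, Sox9 averaged from 80.0 to 183 CPM over the lines, and Gfap stayed at or below 0.257 CPM except for 6.93 CPM in male Y217C. Aqp4 was at 0 to 0.113 CPM in 6 of the 8 lines, and Fabp7 was looked for and not found in the count table. Fibroblast and meningeal markers, with 6 of 6 genes measured, summed to between 9580 and 44300 CPM per line. In bulk RNA, fewer cells of a type and less RNA per cell cannot be told apart.

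The module moved in opposite directions in several lines. Against the p53 KO of the same culture, 28 of 33 members were higher in female R172H, 25 in female Y217C, 19 in female Y202C, and 19 in male Y217C, while 26 of 33 were lower in male Y202C. In male R172H 5 members were higher and 9 were lower, and 19 did not pass the test. These shares are read against all genes, of which a large part was called in every comparison. In male R172H the members were called higher in 15.2% and lower in 27.3% of cases, beside 20.2% and 20.5% of all genes. In male Y202C the shares were 6.1% higher and 78.8% lower, beside 37.6% and 35.4%. In male Y217C they were 57.6% and 18.2%, beside 34.9% and 35.6%. In the female culture, R172H had 84.8% of members higher and 9.1% lower, beside 34.4% and 35.3% of all genes. Female Y202C had 57.6% and 27.3%, beside 34.3% and 34.3%. Female Y217C had 75.8% and 6.1%, beside 28% and 28.7%. The median log2 fold change of the members was -0.55 in male Y202C, -0.02 in male R172H, and 0.27 in male Y217C, and it was 0.65, 0.32, and 0.56 in female R172H, Y202C, and Y217C. The median over all genes lay between -0.01 and 0.01 in these 6 comparisons. The 3 mutants of a culture are compared with the same 3 p53 KO libraries, so the comparisons within a culture are not independent.

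**Figure D1:**
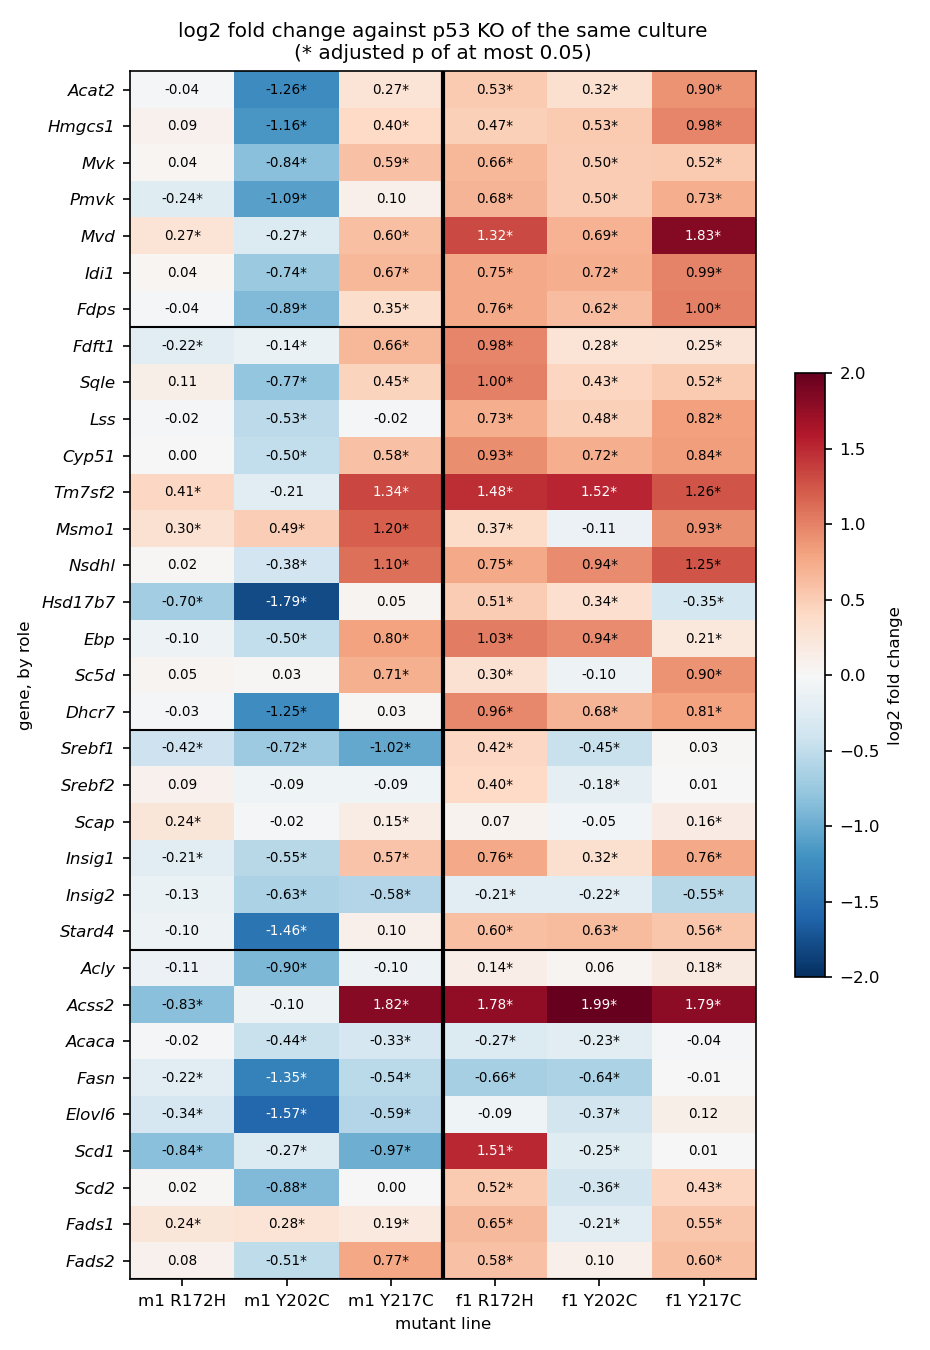
Log2 fold change of each of the 33 genes (rows, by role) in each mutant line (columns) against p53 KO of its culture, on a color scale from -2 to 2, with an asterisk where the adjusted p was at most 0.05. The mevalonate and sterol rows are blue in male Y202C, except Msmo1 (0.49) and Sc5d (0.03), and red in the female columns, except Hsd17b7 in Y217C (-0.35) and Msmo1 (-0.11) and Sc5d (-0.10) in Y202C.

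The male Y202C line, with most members lower, also had a lower summed level of 12 genes of dividing cells, at 842 ± 34.7 CPM against 1860 ± 141 in male p53 KO (mean and SD, n = 3), and 11 of those 12 genes fell. The same list summed to 1300 ± 137 CPM in female R172H and 1370 ± 69.3 in female Y202C against 2100 ± 69.9 in female p53 KO, and 11 of 12 fell in each, while most members rose in these lines. In male R172H, male Y217C, and female Y217C, 3, 4, and 2 of the 12 fell (25%, 33.3%, and 16.7%). Of all genes, 20.5%, 35.6%, and 28.7% were lower in these lines. Fibroblast and meningeal markers summed to 9580 ± 956 CPM in male Y202C against 30200 ± 2740 in male p53 KO, where 3 of 6 fell, 2 did not pass, and Dcn rose by 0.83 on the log2 scale, and most of the sum was from Col1a1 and Col1a2. They summed to 44300 ± 3830 and 37400 ± 3180 CPM in female R172H and Y202C against 24900 ± 1080 in female p53 KO, and 6 of 6 rose in each. In these 3 lines the summed levels of both lists did not overlap those of p53 KO. In male Y217C the fibroblast markers summed to 17700 ± 312 CPM, with 1 of 6 higher and 4 lower, and in female Y217C to 25500 ± 1010, with 3 higher and 1 lower. Astrocyte markers, with 10 of 11 genes measured, summed to 231 ± 7.37 CPM in male Y202C against 400 ± 11.4 in male p53 KO, where 3 of the 10 rose and 7 fell, and to 579 ± 24.7 in male Y217C, where 8 of 10 rose. In female R172H they summed to 671 ± 18.9 CPM against 400 ± 14.4 in female p53 KO, with 4 of 10 higher and 2 lower. Slc1a3 averaged 281 against 18.7 CPM there, while Gja1 averaged 157 against 221. In female Y217C the astrocyte markers summed to 295 ± 19.3 CPM, with 1 higher and 4 lower. The sum was 404 ± 24.3 CPM in female Y202C, with 4 higher and 1 lower, and 392 ± 25.1 in male R172H, with 0 higher and 6 lower. Of all genes, 20.2% were called higher and 20.5% lower in male R172H. In male Y202C and Y217C the shares of all genes were 37.6% and 35.4%, and 34.9% and 35.6%. In female R172H, Y202C, and Y217C they were 34.4% and 35.3%, 34.3% and 34.3%, and 28% and 28.7%. The 4 of 10 astrocyte markers higher in female R172H and in female Y202C are 40%, near these shares. The part of division and of cell composition in the changes of the module was not tested.

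The promoters of 4 members are shown because they carry, or lack, motifs known from SREBP target promoters. Hmgcs1 and Mvd are from the mevalonate arm, Insig1 from the regulators, and Fasn from the fatty acid arm. No gene of the squalene and sterol arm is shown. RefSeq promoter windows on GRCm38.p6, from 250 bases before to 50 bases after the start, matched 26 of the 33 members with 34 windows, and no window was matched for Fads1, Fdft1, Fdps, Scd1, Scd2, Sqle, or Stard4. The motifs searched on both strands were TCACNCCAC (the core of a sterol regulatory element), CACGTG (an E-box), CCAAT (an NF-Y box, ATTGG on the other strand), and GGGCGG (a GC box). The sterol element was found in 1 of 34 member windows, that of Hmgcs1, and in 1.24% of all 32851 windows. CACGTG was found in 17.6% of member windows and 7.15% of all windows, CCAAT in 64.7% and 37.4%, and GGGCGG in 76.5% and 35.7%. The bases before the start are printed 5′ to 3′ on the gene's strand, with the first 3 motifs in capitals. They are from chr13:119690101-119690350 (plus strand), chr5:28071162-28071411 (plus strand), chr8:122443423-122443672 (minus strand), and chr11:120824548-120824797 (minus strand).
Hmgcs1: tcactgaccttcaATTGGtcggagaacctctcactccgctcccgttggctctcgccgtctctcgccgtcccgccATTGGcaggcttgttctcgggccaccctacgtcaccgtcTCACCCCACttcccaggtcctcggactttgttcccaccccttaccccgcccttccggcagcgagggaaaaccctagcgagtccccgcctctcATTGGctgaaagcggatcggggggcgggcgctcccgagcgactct
Insig1: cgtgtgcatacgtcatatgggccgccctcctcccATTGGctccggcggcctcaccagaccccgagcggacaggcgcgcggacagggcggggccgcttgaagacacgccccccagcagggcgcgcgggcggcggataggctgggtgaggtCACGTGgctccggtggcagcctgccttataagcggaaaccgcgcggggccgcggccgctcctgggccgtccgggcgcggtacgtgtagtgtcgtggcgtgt
Mvd: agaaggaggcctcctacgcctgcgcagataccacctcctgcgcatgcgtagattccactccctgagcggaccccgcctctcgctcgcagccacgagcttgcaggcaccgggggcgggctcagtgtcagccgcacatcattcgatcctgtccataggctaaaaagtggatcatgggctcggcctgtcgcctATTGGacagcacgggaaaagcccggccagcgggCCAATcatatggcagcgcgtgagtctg
Fasn: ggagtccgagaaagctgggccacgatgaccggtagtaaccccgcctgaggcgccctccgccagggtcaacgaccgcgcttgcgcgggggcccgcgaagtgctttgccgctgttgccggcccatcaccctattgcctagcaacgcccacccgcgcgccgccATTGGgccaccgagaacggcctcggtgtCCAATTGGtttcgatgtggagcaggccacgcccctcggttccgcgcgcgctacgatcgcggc
In Hmgcs1 the sterol element begins 137 bases before the start, with CCAAT matches at 237, 176, and 45 bases. Insig1 has an E-box 101 bases and a CCAAT match 216 bases before the start. Mvd has CCAAT matches at 60 and 27 bases, and Fasn has them at 90, 62, and 59 bases, the last pair overlapping by 2 bases. These matches are descriptions of letters and not of bound sites.

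Per length of exon, the module ranged widely in the 6 p53 KO libraries. Scd2, a stearoyl-CoA desaturase of brain, had the highest mean level at 324 RPKM (CPM per kilobase of exon), followed by Fasn at 72.6 and Fads1 at 62.9. Acss2 at 0.511 RPKM and Tm7sf2 at 0.912 RPKM were lowest. Hmgcs1 stood at 35.8, Sqle at 21.2, and Dhcr7 at 4.98 RPKM. Srebf2 at 61.0 RPKM was above Srebf1 at 31.1.

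The 7 genes of the mevalonate arm rose together in each female mutant line and fell together in male Y202C. In the female culture 7 of 7 rose with R172H, with Y202C, and with Y217C, and in the male culture 7 of 7 fell with Y202C and 6 rose with Y217C. In male R172H 1 rose and 1 fell. Thus 100% were higher in female R172H, Y202C, and Y217C, beside 34.4%, 34.3%, and 28% of all genes. In male Y202C 100% were lower, beside 35.4%, and in male Y217C 85.7% were higher, beside 34.9%. Male R172H had 14.3% each way, beside 20.2% higher and 20.5% lower. The summed level of the 7 genes was 476 ± 30.7 CPM in male p53 KO, 244 ± 8.58 in male Y202C, and 630 ± 22.4 in male Y217C (mean and SD, n = 3). In the female lines it was 387 ± 7.93 CPM in p53 KO, 613 ± 16 in R172H, 565 ± 23.8 in Y202C, and 774 ± 42.8 in Y217C.

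Mvd, the decarboxylase that ends the mevalonate steps, had the largest rise of the arm in female R172H and Y217C. Mvd stood at 33, 37 and 36.9 CPM in male p53 KO, 39.2, 47.1 and 42.5 in R172H, 31, 29.7 and 28.1 in Y202C, and 50.1, 53.9 and 58.1 in Y217C. In the female culture its values were 25.8, 24.2 and 24.9 CPM in p53 KO, 66.3, 57.7 and 63.5 in R172H, 39.9, 44.5 and 36.4 in Y202C, and 101, 81.5 and 84.7 in Y217C. All female mutant libraries were above all female p53 KO libraries, and female Y217C was the highest line. The log2 fold change was 1.83 ± 0.087 (SE, adjusted p = 2.38e-14) in female Y217C and 1.32 ± 0.086 in female R172H, against -0.27 ± 0.086 in male Y202C. In male R172H Mvd was 1.2-fold of p53 KO (adjusted p = 0.0142), and the adjusted p lay between 0.0793 and 0.103 without male p53 KO replicate 1 or male R172H replicate 2.

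Hmgcs1, which makes the direct precursor of mevalonate, stood at 162, 194 and 193 CPM in male p53 KO, 180, 209 and 197 in R172H, 80.7, 78.5 and 86.7 in Y202C, and 238, 255 and 236 in Y217C. Its female values were 144, 145 and 147 CPM in p53 KO, 210, 206 and 189 in R172H, 225, 196 and 209 in Y202C, and 301, 279 and 278 in Y217C. Male Y202C was below every other line without overlap, and the female mutant libraries were all above female p53 KO. On the log2 scale the difference from p53 KO was -1.16 ± 0.069 (SE, adjusted p = 2.75e-13) in male Y202C, a level 2.24-fold lower, and 0.98 ± 0.069 in female Y217C. In male R172H the log2 value was 0.09 ± 0.068, and the libraries overlapped those of p53 KO.

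Acat2, a thiolase that joins acetyl units, had the largest fall of the arm. It stood at 48, 50.9 and 49.8 CPM in male p53 KO, 46.6, 49.3 and 49.2 in R172H, 21.5, 20.1 and 20.4 in Y202C, and 57.4, 63.3 and 58.6 in Y217C. In the female lines it was at 45.5, 42 and 42.3 CPM in p53 KO, 59.4, 64.5 and 63.6 in R172H, 57.7, 52.2 and 52.3 in Y202C, and 84.3, 78.4 and 79.5 in Y217C. The male Y202C libraries were lowest of all 24, and no female mutant library overlapped female p53 KO. Relative to p53 KO the log2 fold change was -1.26 ± 0.056 (SE, adjusted p = 1.11e-15) in male Y202C and 0.90 ± 0.055 in female Y217C.

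Idi1, which isomerizes isopentenyl diphosphate, had the largest rise of the arm in male Y217C and female Y202C. Its values were 16.8, 17.2 and 18 CPM in male p53 KO, 18.1, 18.2 and 17.2 in R172H, 8.65, 9.68 and 12.9 in Y202C, and 27.1, 29.5 and 26.2 in Y217C. In female lines they were 15.3, 14.3 and 13.9 CPM in p53 KO, 24.2, 27.8 and 21.4 in R172H, 26.3, 20.4 and 24.8 in Y202C, and 28.1, 29.9 and 28.4 in Y217C. The groups named did not overlap p53 KO, and the replicates of female Y202C spread more widely than those of female p53 KO. As a log2 fold change the difference was 0.67 ± 0.11 in male Y217C and 0.72 ± 0.11 in female Y202C. Pmvk, the kinase after Mvk, had the largest fall of the arm in male R172H at -0.24 ± 0.065 (SE, adjusted p = 0.00404). Its libraries were 30.3, 32.3 and 31.3 CPM in male p53 KO and 26, 27.7 and 25.5 in male R172H, without overlap. In male Y217C Pmvk was at 32.8, 34.4 and 33.5 CPM and did not pass the test. Mvk, the first kinase of the arm, fell by 0.84 on the log2 scale in male Y202C and rose by 0.66, 0.50, and 0.52 in female R172H, Y202C, and Y217C. Fdps, which makes farnesyl diphosphate, fell by 0.89 in male Y202C and rose by 0.76, 0.62, and 1.00 in these female lines.

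The 11 genes of the squalene and sterol arm followed the same pattern with more exceptions. All 11 rose in female R172H, 9 in female Y202C, 10 in female Y217C, and 8 in male Y217C. In male Y202C 8 fell and 1 rose, and in male R172H 2 rose and 2 fell. Shares higher were 100%, 81.8%, and 90.9% in female R172H, Y202C, and Y217C, beside 34.4%, 34.3%, and 28% of all genes. Male Y217C had 72.7% higher, beside 34.9%. Male Y202C had 72.7% lower and 9.1% higher, beside 35.4% and 37.6%. Male R172H had 18.2% each way, near the 20.2% higher and 20.5% lower of all genes. Together with the mevalonate arm, the 18 sterol genes summed to 1240 ± 57.2 CPM in male p53 KO, 1260 ± 71.6 in male R172H, 848 ± 27.9 in male Y202C, and 1810 ± 37.9 in male Y217C. In the female lines the sum was 1040 ± 11.4 CPM in p53 KO, 1750 ± 56.4 in R172H, 1460 ± 37.1 in Y202C, and 1860 ± 70.6 in Y217C. Female mutant lines were thus 1.68, 1.4, and 1.78 times their p53 KO, and male Y202C was 0.684 times its own.

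**Figure D2:**
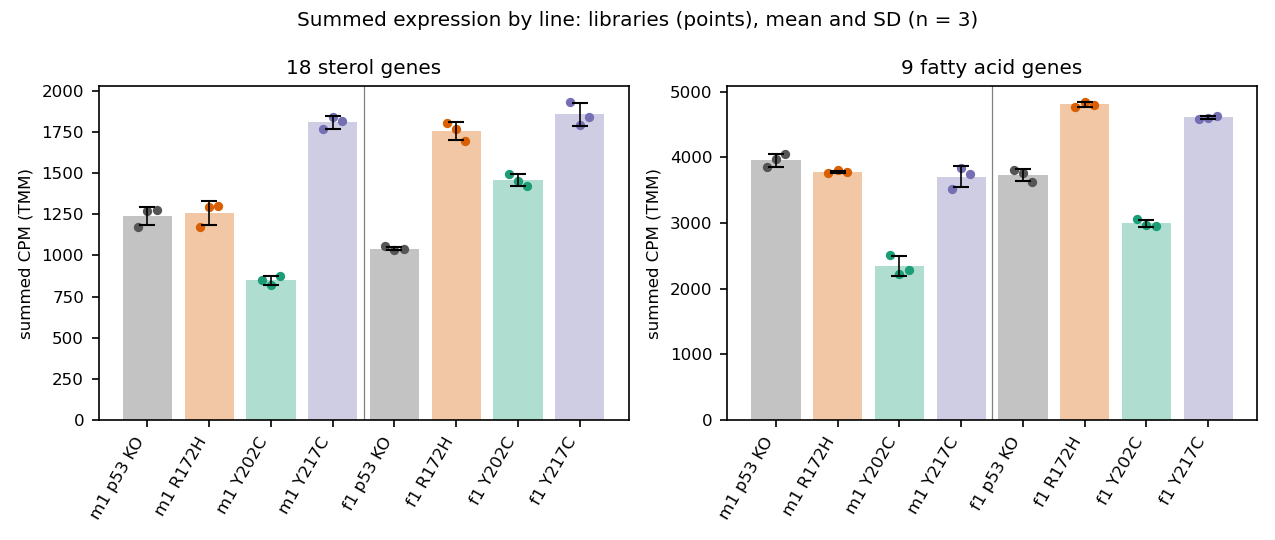
Summed CPM of the 18 sterol genes (left) and the 9 fatty acid genes (right) in each line, with bars from 0 for the mean, points for the 3 libraries, and error bars for the SD. The sterol sum is lowest in male Y202C (848) and highest in female Y217C (1860), and the fatty acid sum is lowest in male Y202C (2340) and highest in female R172H (4810).

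Sqle, the epoxidase that commits squalene to sterol, stood at 124, 134 and 137 CPM in male p53 KO, 130, 143 and 152 in R172H, 77.9, 75 and 78.1 in Y202C, and 178, 182 and 180 in Y217C. In the female culture it was at 106, 103 and 103 CPM in p53 KO, 216, 212 and 196 in R172H, 138, 144 and 138 in Y202C, and 151, 148 and 147 in Y217C. Each female mutant line was above female p53 KO without overlap, and male Y202C was below all other lines. The log2 fold change was 1.00 ± 0.052 in female R172H, 0.45 ± 0.052 in male Y217C, and -0.77 ± 0.052 in male Y202C. In male R172H it was 0.11, which passed only without male R172H replicate 1 (adjusted p = 0.0141).

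Hsd17b7, a ketosteroid reductase that acts in removal of the sterol methyl groups, had the largest fall of all 33 members. Its values were 27.1, 25.4 and 27.9 CPM in male p53 KO, 15.8, 17 and 16.8 in R172H, 7.4, 7.37 and 8.48 in Y202C, and 27.5, 28 and 28 in Y217C. The female values were 20.5, 19.6 and 19.8 CPM in p53 KO, 28.9, 29.8 and 26.6 in R172H, 26.4, 23.4 and 26.1 in Y202C, and 14.1, 17.3 and 15.8 in Y217C. Male Y202C was lowest of all lines, and female Y217C was below female p53 KO while the other female mutant lines were above it. On the log2 scale the difference from p53 KO was -1.79 ± 0.076 (SE, adjusted p = 4.53e-16) in male Y202C, or 3.47-fold lower, -0.70 ± 0.072 in male R172H, and -0.35 ± 0.073 (SE, adjusted p = 0.000318) in female Y217C. It was the only gene of the sterol arms called lower in a female mutant line.

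Tm7sf2, a sterol reductase with a low level, had the largest rise of the arm in 5 lines. It stood at 4.08, 4.21 and 5.32 CPM in male p53 KO, 5.42, 7.07 and 5.63 in R172H, 4.22, 3.22 and 4.36 in Y202C, and 11.3, 11.5 and 11.9 in Y217C. In female lines it was at 3.22, 3.5 and 3.77 CPM in p53 KO, 10.7, 9.56 and 8.92 in R172H, 8.98, 11.1 and 9.99 in Y202C, and 8.69, 8.36 and 7.98 in Y217C. Female mutant and male Y217C libraries were all above their p53 KO. Relative to p53 KO the log2 fold change was 1.34 ± 0.12 in male Y217C and 1.48 ± 0.13, 1.52 ± 0.13, and 1.26 ± 0.13 in female R172H, Y202C, and Y217C. In male R172H the call rested on single libraries, with an adjusted p of 0.0114 that ranged from 0.0563 to 0.103 without male p53 KO replicate 1, male p53 KO replicate 2, or male R172H replicate 2. Without strand, reads in overlapping genes cannot be told apart, and Tm7sf2 shares 532 bases with Vps51 on the same strand, whose log2 fold change lay between -0.01 and 0.53 in the 6 comparisons.

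Msmo1, the oxidase that starts removal of the C4 methyl groups, was the only gene of the sterol arms called higher in male Y202C. It stood at 77.8, 79.3 and 86 CPM in male p53 KO, 89.6, 100 and 110 in R172H, 108, 109 and 125 in Y202C, and 182, 190 and 185 in Y217C. The female values were 98.8, 97 and 100 CPM in p53 KO, 129, 133 and 120 in R172H, 97, 87.5 and 90.5 in Y202C, and 192, 181 and 191 in Y217C. All male mutant libraries were above male p53 KO, and female Y202C lay at or below the lowest female p53 KO library. As a log2 fold change the difference was 0.49 ± 0.066 (SE, adjusted p = 4.35e-07) in male Y202C, 1.20 ± 0.067 in male Y217C, and -0.11 ± 0.067 in female Y202C. Nsdhl, its partner dehydrogenase in the same step, went the other way in male Y202C at -0.38 ± 0.073 and rose by 1.10 in male Y217C and 1.25 in female Y217C. Dhcr7, the last reductase before cholesterol, was at 30.8 ± 0.973 CPM in male p53 KO and 13 ± 1.44 in male Y202C (mean and SD, n = 3), 2.37-fold lower.

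The other 5 genes of the arm were Fdft1 (squalene synthase), Lss (lanosterol synthase), Cyp51, Ebp, and Sc5d. All 5 rose in female R172H, with log2 fold changes from 0.30 for Sc5d to 1.03 for Ebp. In male Y202C Lss, Cyp51, and Ebp fell by 0.50 to 0.53, Fdft1 was at -0.14, and Sc5d was at 0.03 and did not pass. The call of Fdft1 there was lost without male p53 KO replicate 2 or 3, with adjusted p from 0.0518 to 0.0794. Ebp in female Y217C was at 0.21 with an adjusted p of 0.0441, which lay between 0.0915 and 0.151 without female p53 KO replicate 1 or 3 or female Y217C replicate 1 or 2. Fdft1 shares 774 bases with Ctsb on the opposite strand, and the strand used in counting was not stated. Ctsb was at 0.64, 0.04, and -0.32 on the log2 scale in female R172H, Y202C, and Y217C, beside 0.98, 0.28, and 0.25 for Fdft1. In male R172H, Y202C, and Y217C Ctsb was at -0.16, 0.39, and 0.21, beside -0.22, -0.14, and 0.66. The part of Ctsb reads in the values of Fdft1 was not tested.

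**Figure D3:**
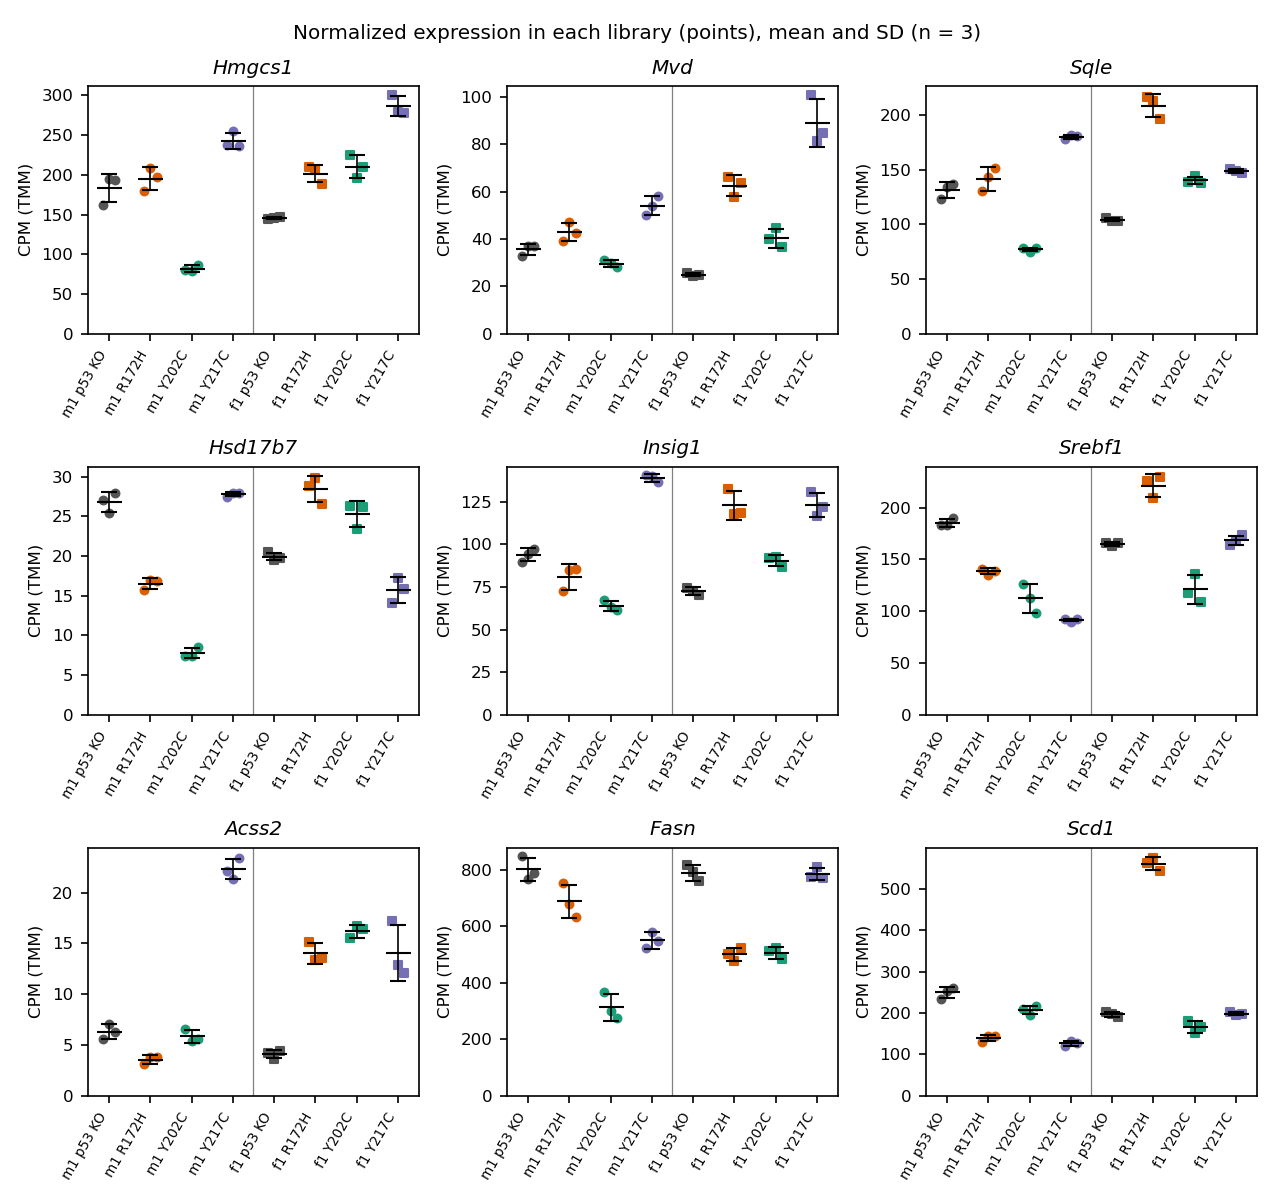
CPM of 9 members in every library (points), with the mean and SD of the 3 libraries of each line, male lines to the left and female lines to the right of the vertical line, on linear axes from 0. Hmgcs1, Sqle, and Hsd17b7 are lowest in male Y202C, and Scd1 is highest in female R172H at 544 to 575 CPM.

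The 6 genes of SREBP regulation and sterol transport changed in both directions in 5 of the 6 mutant lines. Of these genes, 4 rose in female R172H and 4 fell in male Y202C, and the other mutant lines had from 1 to 3 in each direction. Female R172H had 66.7% higher and 16.7% lower, beside 34.4% and 35.3% of all genes. Male Y202C had 0% and 66.7%, beside 37.6% and 35.4%. Male Y217C had 33.3% each way, beside 34.9% and 35.6%, and male R172H 16.7% and 33.3%, beside 20.2% and 20.5%. Female Y202C had 33.3% and 50%, beside 34.3% each way, and female Y217C 50% and 16.7%, beside 28% and 28.7%. Srebf2, whose protein acts mainly on sterol genes, stood at 424, 438 and 454 CPM in male p53 KO, 465, 468 and 466 in R172H, 463, 414 and 360 in Y202C, and 392, 424 and 417 in Y217C. The female lines stood at 440, 438 and 436 CPM in p53 KO, 599, 546 and 590 in R172H, 379, 425 and 357 in Y202C, and 454, 427 and 438 in Y217C. Male R172H lay just above male p53 KO, the other male mutant lines overlapped it, and female R172H was above all other lines. The log2 fold change was 0.40 ± 0.068 (SE, adjusted p = 1.47e-05) in female R172H and between -0.09 and 0.09 in the 3 male mutant lines, none of which passed. For male Y202C the adjusted p was 0.251, and it was 0.019 without male Y202C replicate 1, at a log2 fold change of -0.18. In female Y202C it was -0.18 ± 0.068, a call lost without female p53 KO replicate 1 or 2 or female Y202C replicate 1 or 3, with adjusted p from 0.0509 to 0.208.

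Srebf1, whose protein acts mainly on fatty acid genes, stood at 183, 183 and 190 CPM in male p53 KO, 141, 135 and 139 in R172H, 126, 113 and 98.5 in Y202C, and 92.2, 89.9 and 92 in Y217C. Female libraries were at 166, 163 and 166 CPM in p53 KO, 226, 209 and 229 in R172H, 118, 136 and 109 in Y202C, and 164, 167 and 173 in Y217C. Each male mutant line was below male p53 KO without overlap, female R172H was above female p53 KO, and female Y202C was below it. On the log2 scale the difference from p53 KO was -1.02 ± 0.071 (SE, adjusted p = 5.8e-12) in male Y217C, -0.72 ± 0.071 in male Y202C, and -0.42 ± 0.07 in male R172H. It was 0.42 ± 0.07 in female R172H, -0.45 ± 0.071 in female Y202C, and 0.03 ± 0.07 in female Y217C.

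Scap, the escort of SREBP, had the smallest differences of the regulators, from -0.05 in female Y202C to 0.24 in male R172H. Its libraries lay between 83.9 and 114 CPM in the male culture and between 73.0 and 91.7 CPM in the female culture. In male R172H it passed with an adjusted p of 0.00539. The 2 other calls, both in Y217C lines, had adjusted p-values of 0.0425 in male and 0.0473 in female cells. Leaving out any single library but male Y217C replicate 1 gave a value from 0.056 to 0.121 for the male call, and leaving out any of the 6 libraries gave a value from 0.065 to 0.127 for the female call.

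Insig1 and Insig2, which hold SCAP back when sterol is plentiful, differed in direction in most lines. Insig1, itself a known SREBP target, stood at 89.9, 94.6 and 97.3 CPM in male p53 KO, 72.4, 85.3 and 85.4 in R172H, 67.2, 63.4 and 61.5 in Y202C, and 141, 140 and 137 in Y217C. The female values were 74.7, 72.7 and 70.2 CPM in p53 KO, 133, 118 and 118 in R172H, 91.8, 92.7 and 86.9 in Y202C, and 131, 117 and 122 in Y217C. All female mutant libraries and those of male Y217C were above p53 KO, and male Y202C was below. Relative to p53 KO the log2 fold change was 0.76 ± 0.062, 0.32 ± 0.062, and 0.76 ± 0.062 in female R172H, Y202C, and Y217C, 0.57 ± 0.062 in male Y217C, and -0.55 ± 0.062 in male Y202C. In male R172H it was -0.21 ± 0.062 with an adjusted p of 0.00741, and -0.14 with an adjusted p of 0.0708 without male R172H replicate 1.

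Insig2, Fasn, and Acaca were the members with values below 0 in each of the 6 comparisons, and Insig2 passed in 5 of them. Its values were 23.8, 26.3 and 28.7 CPM in male p53 KO, 23.2, 24.7 and 24.4 in R172H, 18.2, 16.9 and 15.9 in Y202C, and 18.3, 16.1 and 18.4 in Y217C. The female values were 26.7, 27.3 and 27 CPM in p53 KO, 23.6, 21.2 and 25.2 in R172H, 21.1, 25.3 and 23.1 in Y202C, and 19.1, 18.1 and 18.2 in Y217C. Both Y217C lines were below p53 KO without overlap. As a log2 fold change the difference was -0.63 ± 0.079 in male Y202C, -0.58 ± 0.079 in male Y217C, and -0.55 ± 0.079 in female Y217C. In female R172H and Y202C it was -0.21 and -0.22. The R172H call was lost without female p53 KO replicate 2 or female R172H replicate 2 (adjusted p from 0.0504 to 0.129), and the Y202C call without female Y202C replicate 1 or 3 (0.0561 to 0.103).

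Stard4, a carrier of cholesterol between membranes, stood at 48.4, 48 and 48.9 CPM in male p53 KO, 44.3, 45.6 and 45.8 in R172H, 18.6, 15.3 and 19 in Y202C, and 50.5, 53.9 and 51 in Y217C. In female lines it was at 40.8, 39.8 and 39.6 CPM in p53 KO, 63, 60.5 and 59.2 in R172H, 61.2, 58.4 and 65.9 in Y202C, and 57.9, 59.1 and 59.7 in Y217C. Male Y202C was below every other line, and each female mutant line was above female p53 KO without overlap. The log2 fold change was -1.46 ± 0.062 (SE, adjusted p = 4.67e-16) in male Y202C, or 2.75-fold lower, and between 0.56 and 0.63 in the female mutant lines.

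The 9 genes of the fatty acid arm did not move in one direction. In female R172H 6 rose and 2 fell, in female Y217C 5 rose and 0 fell, in female Y202C 1 rose and 6 fell, and in male Y202C 1 rose and 7 fell. In male Y217C 3 rose and 4 fell, and in male R172H 1 rose and 4 fell. Male Y217C thus had 33.3% higher and 44.4% lower, beside 34.9% and 35.6% of all genes. Male R172H had 11.1% and 44.4%, beside 20.2% and 20.5%, and male Y202C 11.1% and 77.8%, beside 37.6% and 35.4%. Female R172H had 66.7% and 22.2%, beside 34.4% and 35.3%. Female Y202C had 11.1% and 66.7%, beside 34.3% each way, and female Y217C 55.6% and 0%, beside 28% and 28.7%. The summed level was 3960 CPM in male p53 KO and 3780, 2340, and 3700 CPM in male R172H, Y202C, and Y217C. In the female culture it was 3730 CPM in p53 KO and 4810, 2990, and 4610 CPM in R172H, Y202C, and Y217C. Scd2 made up from 42.2% to 51.2% of the sum in each library, so the sum follows this gene closely.

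Acss2, which makes acetyl-CoA from acetate, had the largest rise of the module. Its values were 5.58, 7.04 and 6.29 CPM in male p53 KO, 3.08, 3.83 and 3.78 in R172H, 6.59, 5.42 and 5.6 in Y202C, and 22.2, 21.4 and 23.4 in Y217C. The female values were 4.23, 3.61 and 4.38 CPM in p53 KO, 15.2, 13.3 and 13.5 in R172H, 15.5, 16.7 and 16.4 in Y202C, and 17.3, 12.9 and 12.1 in Y217C. Male Y217C and the 3 female mutant lines were all above p53 KO without overlap, and male R172H was below it. On the log2 scale the difference from p53 KO was 1.99 ± 0.12 (SE, adjusted p = 1.16e-12) in female Y202C, or 3.97-fold higher, 1.78 ± 0.12 in female R172H, 1.79 ± 0.12 in female Y217C, and 1.82 ± 0.12 in male Y217C. In male R172H it was -0.83 ± 0.13. Acss2 overlaps Gss on the opposite strand over 22544 bases, reads in the shared bases may be lost as ambiguous, and Gss itself lay between -0.39 and 0.31 on the log2 scale in the 6 comparisons. Ggt7, which shares 290 bases with Acss2 on the opposite strand, changed by 2.70, 3.01, and 0.48 in female R172H, Y202C, and Y217C. In male R172H, Y202C, and Y217C Ggt7 was at -0.94, -2.41, and -0.76, beside -0.83, -0.10, and 1.82 for Acss2. The part of Ggt7 reads in the values of Acss2 was not tested.

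Fasn, the fatty acid synthase, fell in 5 of the 6 mutant lines. It stood at 848, 766 and 789 CPM in male p53 KO, 751, 679 and 634 in R172H, 367, 299 and 274 in Y202C, and 522, 581 and 546 in Y217C. The female lines stood at 816, 792 and 760 CPM in p53 KO, 501, 476 and 523 in R172H, 512, 524 and 483 in Y202C, and 776, 811 and 770 in Y217C. Male Y202C was the lowest line, and female R172H and Y202C were below female p53 KO without overlap. Relative to p53 KO the log2 fold change was -1.35 ± 0.079 (SE, adjusted p = 1.99e-13) in male Y202C, -0.54 ± 0.078 in male Y217C, -0.66 ± 0.078 in female R172H, and -0.64 ± 0.078 in female Y202C. In female Y217C it was -0.01 ± 0.078. The fall in male R172H, at -0.22 ± 0.078 with an adjusted p of 0.0282, did not pass without male p53 KO replicate 1 or without male R172H replicate 2 or 3 (adjusted p from 0.0775 to 0.147).

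Scd1, a stearoyl-CoA desaturase, moved in opposite directions in the R172H lines of the cultures. It stood at 234.7, 254.0 and 260.2 CPM in male p53 KO, 129.8, 143.7 and 144.8 in R172H, 209.6, 195.3 and 216.5 in Y202C, and 120.3, 132.5 and 128.3 in Y217C. Female libraries were at 202.5, 197.3 and 190.9 CPM in p53 KO, 561.6, 575.0 and 543.8 in R172H, 179.6, 151.9 and 166.8 in Y202C, and 202.3, 194.6 and 197.2 in Y217C. Female R172H was above every other line, while all 3 male mutant lines were below male p53 KO. As a log2 fold change the difference was 1.51 ± 0.061 (SE, adjusted p = 2.01e-16) in female R172H, -0.84 ± 0.06 in male R172H, and -0.97 ± 0.06 in male Y217C. Its paralog Scd2 averaged 2430 ± 46.1 CPM in female R172H against 1700 ± 40.4 in female p53 KO and 1000 ± 66.2 in male Y202C against 1850 ± 105 in male p53 KO (mean and SD, n = 3). The authors counted uniquely aligned unambiguous reads, so sequence identical in Scd1 and Scd2 is counted for neither gene.

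Elovl6, which lengthens palmitate, had the largest fall of the arm in male Y202C. It stood at 74.3, 72.1 and 76.2 CPM in male p53 KO, 59.7, 57.8 and 58.1 in R172H, 25.7, 23 and 26.4 in Y202C, and 47.3, 54.4 and 46 in Y217C. In female lines it was at 77.5, 80.1 and 76.2 CPM in p53 KO, 66.8, 75.5 and 77.2 in R172H, 67.1, 52.1 and 61.9 in Y202C, and 77.6, 86 and 90.8 in Y217C. The male mutant lines were all below male p53 KO, and female R172H overlapped female p53 KO. The log2 fold change was -1.57 ± 0.082 (SE, adjusted p = 2.38e-14) in male Y202C, or 2.97-fold lower, and -0.37 ± 0.08 in female Y202C. Fads1, a desaturase of polyunsaturated fatty acids, was the only fatty acid gene that rose in male Y202C and in male R172H. Its libraries were 276, 301 and 308 CPM in male p53 KO, 323, 359 and 360 in male R172H, and 368, 347 and 357 in male Y202C. The 2 mutant lines were above p53 KO, and the log2 fold change was 0.24 ± 0.049 and 0.28 ± 0.049. Fads2, the other desaturase of this kind, rose by 0.77 in male Y217C and fell by 0.51 in male Y202C. Acly, which makes cytosolic acetyl-CoA from citrate, fell by 0.90 in male Y202C, where Acaca, the carboxylase of the first committed step, fell by 0.44. Fads2 and Sc5d in female Y202C were at 0.10 and -0.10 and passed only without female Y202C replicate 3 (adjusted p = 0.0205) and female p53 KO replicate 3 (0.0304). Acly in female R172H was at 0.14, a call lost when any library but female R172H replicate 2 was left out (adjusted p from 0.061 to 0.0971).

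The same mutation had different effects in the 2 cultures for most members. The difference between the effects was tested as an interaction, male minus female. For R172H 27 of 33 members had a lower effect in the male culture and 2 a higher one, 81.8% and 6.1%, beside 28.3% and 29.7% of all genes. For Y202C 27 were lower and 2 higher, beside 33.5% and 34.5%. For Y217C 18 were lower and 4 higher, 54.5% and 12.1%, beside 27.4% and 27.5%. The median interaction of the members was -0.71, -1.01, and -0.27 for R172H, Y202C, and Y217C on the log2 scale. The interactions of the 3 mutations share the p53 KO libraries of both cultures. Of the 12 genes of dividing cells, 11 had a higher effect in the male culture for R172H and 10 a lower one for Y202C, while of the 6 fibroblast markers 5 had a lower effect for R172H and 6 for Y202C. For Y217C 5 of 6 fibroblast markers had a lower effect in the male culture and 7 of 10 astrocyte markers a higher one. Trp53 itself averaged 2320 CPM in male and 593 CPM in female Y202C, and 1220 CPM in male and 3710 CPM in female Y217C. Its interaction was 1.91 ± 0.077 for Y202C and -1.67 ± 0.076 for Y217C (SE). For R172H it was 0.17 ± 0.076 and did not pass (adjusted p = 0.0586). The part of Trp53 level, division, and cell composition in the interactions of the members was not tested.

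With Y202C, 17 members were lower in the male and higher in the female culture against their own p53 KO. The interaction is the difference of these same 2 effects, so its passing for 17 of these 17 adds no separate support. They were the 7 genes of the mevalonate arm, Cyp51, Dhcr7, Ebp, Fdft1, Hsd17b7, Lss, Nsdhl, Sqle, Insig1, and Stard4. Fads1 was higher in the male and lower in the female culture, and 7 members (Acaca, Elovl6, Fasn, Insig2, Scd1, Scd2, and Srebf1) were lower in both. The calls of Fdft1 in male Y202C and of Insig2 in female Y202C were lost when certain single libraries were left out. The interaction was -2.14 ± 0.1 (SE, adjusted p = 9.21e-15) for Hsd17b7 and -2.08 ± 0.086 for Stard4. With R172H, 7 members were lower in the male and higher in the female culture (Acss2, Fdft1, Hsd17b7, Insig1, Pmvk, Scd1, and Srebf1), with interactions up to -2.61 ± 0.17 (SE, adjusted p = 6.18e-12) for Acss2. Fasn was lower in both cultures, and Fads1, Msmo1, Mvd, and Tm7sf2 were higher in both. The male R172H calls of Fasn, Mvd, Tm7sf2, and Insig1 were likewise lost without certain single libraries. With Y217C no member was called in opposite directions in the cultures, 19 were higher in both, and Insig2 was lower in both. Of the 19, the calls of Scap in both lines and of Ebp in female Y217C were lost in the same way. Mvd and Srebf1 had the largest interactions for Y217C, at -1.23 ± 0.12 and -1.05 ± 0.1. How many of all genes were called in opposite or in the same directions in both cultures was not counted. These counts of members are therefore not read against all genes.

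**Figure D4:**
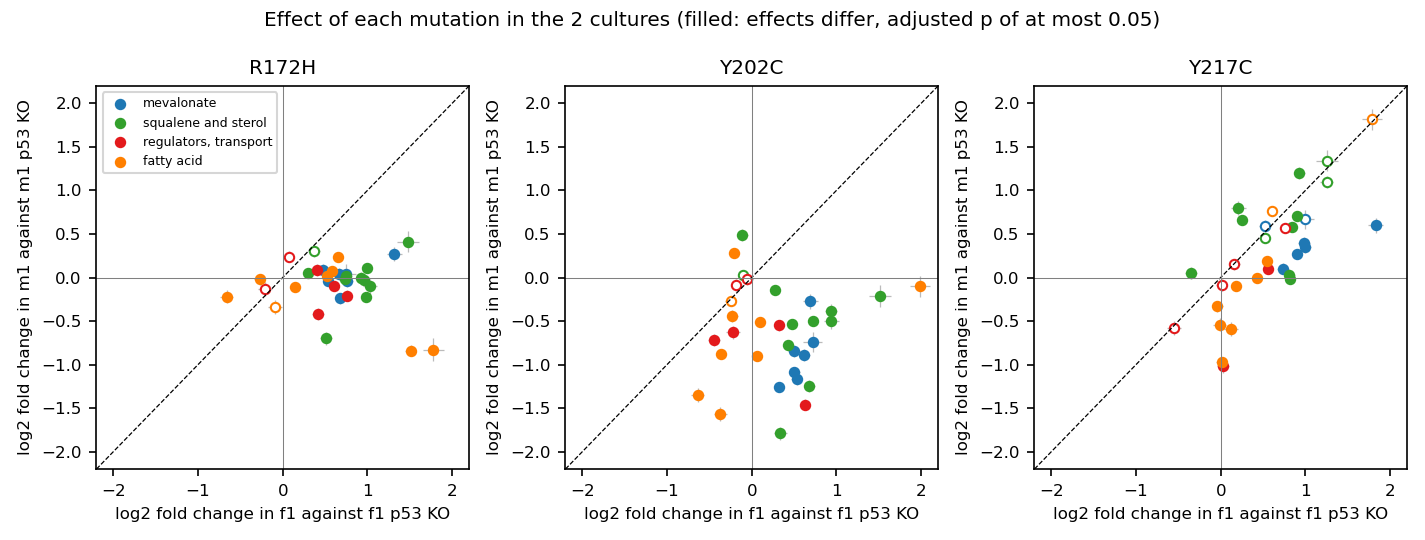
Log2 fold change of each member in the male culture (vertical) against that in the female culture (horizontal) for R172H, Y202C, and Y217C, with SE bars, colors for the 4 roles, filled points where the interaction passed, and a dashed line of equal effects. Most points lie below the dashed line for R172H and Y202C, and for Y202C 17 members were called lower in male and higher in female cells.

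The p53 KO lines of the cultures were not level for these genes. Male p53 KO exceeded female p53 KO in 22 of 33 members and was below it in 1, Msmo1, which is 66.7% and 3.0% beside 17.2% and 13.8% of all genes. The differences were small, with a median of 0.25 on the log2 scale and a largest of 0.63 ± 0.12 for Acss2. Mvd was 1.43-fold and Hsd17b7 1.35-fold of the female level. The effects of a mutation in the cultures are therefore measured from different baselines.

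The mutants of a culture were also compared directly with each other. In the male culture 27 members (81.8%) were higher in R172H than in Y202C and 3 (9.1%) were lower, beside 34.4% and 36.9% of all genes. Male Y202C was lower than male Y217C in 27 members (81.8%) and higher in 2, Scd1 and Srebf1 (6.1%), beside 35.6% and 38%. Male R172H was lower than male Y217C in 20 (60.6%) and higher in 6 (18.2%), beside 33.7% and 35.2%, with -2.65 ± 0.13 for Acss2. In the female culture R172H was higher than Y202C in 19 members (57.6%) and lower in 1, Nsdhl (3.0%), beside 29.8% and 29.7%. Female R172H was higher than Y217C in 9 (27.3%) and lower in 10 (30.3%), near the 32.4% and 33.8% of all genes, and the median of the members was -0.01, with 1.50 ± 0.061 for Scd1 and -0.51 ± 0.084 for Mvd. Female Y202C was lower than Y217C in 21 (63.6%) and higher in 3, Ebp, Hsd17b7, and Insig2 (9.1%), beside 30.5% and 32.1%.

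Other genes around the pathway were counted in the same comparisons, and their shares were not tested against those of the module or of all genes. Not every line is given for each list. Of all genes, 37.6% were called higher and 35.4% lower in male Y202C, and 34.4% and 35.3% in female R172H. Isoprenoid branches use the same mevalonate for farnesylation, dolichol, and ubiquinone. Of 12 genes of these branches, 6 rose and 1 fell in male Y202C (50% and 8.3%). In female R172H 5 rose and 4 fell (41.7% and 33.3%). Pdss2, of ubiquinone side chain synthesis, rose by 0.74 in male Y202C, and Pdss1, its partner, fell by 0.72 in female R172H. Of 12 genes of sterol uptake, transport, and storage, 6 rose and 4 fell in both of these lines (50% and 33.3%). Stard5, another sterol carrier, went from 8.40, 8.99 and 9.44 CPM in male p53 KO to 89.2, 82.6 and 77.6 in male Y202C, and Lrp8, a lipoprotein receptor, fell by 1.52 in female Y202C. Of 13 genes of SREBP processing and sterol sensing, 6 rose and 4 fell (46.2% and 30.8%) in male Y202C. Erlin1, an endoplasmic reticulum protein of sterol sensing, rose there by 2.68 ± 0.062 and Sec23a, of the coat that carries SCAP, fell by 1.18.

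The LXR response is the nuclear receptor program of sterol excess. Its 6 measured genes were Abca1, Mylip, Lpcat3, Abcg4, and the receptor genes Nr1h2 and Nr1h3. Abcg1 was not found in the count table. Nr1h3 and Abcg4 were low, at 0.208 and 1.02 CPM in female p53 KO and 0.443 and 0.573 in female R172H. Of the 6 genes, 5 rose and 1 fell in female R172H and 5 rose in female Y202C. In male Y217C 1 rose and 3 fell, and in male Y202C 3 rose and 2 fell. In female Y217C 3 rose and 1 fell, and in male R172H 2 rose. The shares higher in these lines were 83.3%, 83.3%, 16.7%, 50%, 50%, and 33.3%. Beside them were 34.4%, 34.3%, 34.9%, 37.6%, 28%, and 20.2% of all genes. The shares lower were 16.7%, 0%, 50%, 33.3%, 16.7%, and 0%, beside 35.3%, 34.3%, 35.6%, 35.4%, 28.7%, and 20.5%. Abca1, the cholesterol exporter, averaged 68.7 CPM in female p53 KO and 175, 149, and 117 CPM in female R172H, Y202C, and Y217C, and 101 CPM in male p53 KO against 122, 99.2, and 71.1 in the male mutant lines. In male Y217C Nr1h3, which encodes LXR alpha, went from 0.520, 0.294 and 0.442 CPM in p53 KO to 2.18, 1.4 and 1.81, and Mylip, an LXR target that degrades lipoprotein receptors, fell by 1.44. Of 19 genes of fatty acid supply and glyceride synthesis, 12 rose and 3 fell in female R172H. These were 63.2% and 15.8%, beside 34.4% and 35.3% of all genes. Elovl7, an elongase, rose by 3.33 ± 0.14 on the log2 scale in that line. Idh1, a cytosolic source of NADPH, fell by 1.72 in male Y202C.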

How the data were processed

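RNA from 24 libraries of mouse astrocyte lines (8 lines, 3 libraries each) was sequenced. The authors aligned reads to Ensembl release 76 with STAR 2.5.1a and deposited raw counts per gene, taken with featureCounts from uniquely aligned unambiguous reads. The strand setting is not given in the sources used here. The deposited table holds 14427 genes, of which 14350 were named from GENCODE M21 (GRCm38).

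From these counts, edgeR 4.0.16 (R 4.3.3) was fitted over all 24 libraries with trimmed mean of M-values factors and 1 mean per line. The quasi-likelihood test gave 16 comparisons: 6 of a mutant line against p53 KO of its culture, 3 interactions between cultures, 6 of mutant lines with each other, and 1 of the p53 KO lines. P-values were adjusted over all genes by the method of Benjamini and Hochberg, with a threshold of 0.05, and SE was the log2 fold change divided by the square root of F. The samples were grouped by the line names in the labels. The libraries of a line came from repeat platings, so p-values measure that spread. The same replicate numbers recur in each line, but same-numbered libraries of different lines did not deviate together (mean correlation -0.0116 over 84 pairs, against 0.00571 over 168 others), and no block was used. No replicate pair agreed within sampling noise.

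In each role, the members with the largest rise and fall past the threshold in each of the 6 comparisons were given by library, with the SREBP regulators always described. Hmgcs1, Sqle, Dhcr7, Scd2, Abca1, the marker genes Dcn, Slc1a3, and Gja1, and the overlapping genes were given values after their values were seen. The members, roles, and lists were chosen with earlier results of these data known. On simulated counts for male Y202C against p53 KO, over 13677 genes, the test recovered 197 of 200 changed genes, 100 of 100 at a log2 change of 1, with 13 false calls. Alternatives were DESeq2 1.42.0, limma 3.58.1 with quality weights, other scaling factors and filters, fits of only the lines compared, a replicate block, and leaving out each library. Promoter sequences and their build are from RefSeq. Figures were drawn with matplotlib 3.10.9.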

Additional observations from a re-analysis of the deposited data

Results flagged for a closer look

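The effect of a mutation differed between the male and female cultures in a test of the difference itself (edgeR interaction, male minus female, adjusted over all 14427 genes) for 29 of the 33 genes with R172H, 29 with Y202C, and 22 with Y217C. Members had a lower effect in the male culture in 81.8%, 81.8%, and 54.5% and a higher one in 6.1%, 6.1%, and 12.1%. Of all genes, 28.3% had a lower and 29.7% a higher effect in the male culture for R172H. For Y202C and Y217C these shares of all genes were 33.5% and 34.5%, and 27.4% and 27.5%. For R172H the most negative differences of the members on the log2 scale were -2.61 for Acss2 and -2.35 for Scd1, and the most positive was 0.44 for Fasn. Hsd17b7 at -2.14, Acss2 at -2.09, and Msmo1 at 0.60 held these places for Y202C. For Y217C they were Mvd at -1.23, Srebf1 at -1.05, and Ebp at 0.60. Because each sex is 1 pooled culture, a difference between sexes and a difference between cultures cannot be told apart.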

How the results depend on the processing

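A floor on the absolute log2 fold change of 0.5 moved 8 of the 16 counts of genes called by over 1.5 times. With it the count against p53 KO was 3 rather than 14 in male R172H and 13 rather than 28 in female Y202C, and the Y217C interaction count was 12 rather than 22. Between mutants it was 14 rather than 26 for male R172H and Y217C, 8 rather than 20 for female R172H and Y202C, 10 rather than 19 for female R172H and Y217C, and 9 rather than 24 for female Y202C and Y217C. Between the p53 KO lines it was 2 rather than 23. Leaving out 1 library at a time gave counts of 11 to 14, 27 to 29, and 24 to 25 for male R172H, Y202C, and Y217C and of 29 to 30, 26 to 29, and 25 to 26 for the female lines. It gave 28 to 29, 28 to 29, and 21 to 22 for the interactions of R172H, Y202C, and Y217C. It gave 28 to 30, 25 to 27, and 28 to 30 for the male and 17 to 23, 17 to 20, and 20 to 24 for the female mutant pairs, and 19 to 24 for the p53 KO lines. Replicate numbers did not pair the libraries, and with a replicate block the counts were 14, 28, and 24 in the male and 31, 28, and 25 in the female lines. Among 198 tests of single genes against p53 KO, the block lost 3 calls (Scap in both Y217C lines and Ebp in female Y217C). DESeq2 kept all 198 on their side of the threshold and in their direction, limma with quality weights moved 7 past it, and no alternative turned a called direction. Upper-quartile scaling shifted the median of all genes by -0.103 in male Y202C against p53 KO and moved 6 tests across the threshold. The causes were not tested.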
